A study of Mus musculus with 3 samples.

Results

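Genes of the hypoxia pathway were examined in mouse bone-marrow-derived macrophages exposed to lipid A. The set is Hif1a, Epas1, Arnt, Egln1, Egln2, Egln3, Vhl, Vegfa, Adm and Ero1l, chosen by gene symbol, and it makes up 10 of the 55536 annotated genes in the gene tables. All 10 symbols were found. The 3 libraries were made from polyadenylated RNA, 1 µg each, of C57BL/6J macrophages grown from bone marrow, and their labels carry replicate numbers 1, 2 and 3. All 3 received the same regimen: 12 h in 100 ng/ml lipid A, a washout of 12 h and 480 min in 100 ng/ml lipid A again. The labels' description says lipid A, the Toll-like receptor 4 ligand of bacterial lipopolysaccharide, whereas their treatment fields say lipoprotein A. The libraries therefore form 1 group, and no untreated library, other time or other oxygen level was analysed here. They share 1 donor record and nothing says that they came from separate animals, so the spread between them may be technical. Sex and age were not collected, and oxygen during culture is not given in the sources used here.

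Hypoxia-inducible factor (HIF) is a dimer of an oxygen-regulated α subunit, encoded by Hif1a or Epas1 (HIF-2α), and a constitutive β subunit, encoded by Arnt. In oxygenated cells the prolyl hydroxylases encoded by Egln1, Egln2 and Egln3 (PHD2, PHD1 and PHD3) modify the α subunit, and the ubiquitin ligase component encoded by Vhl then binds it for degradation. Control of HIF-1α is thus largely at the protein level, which RNA libraries do not measure. Vegfa, Adm and Ero1l are textbook HIF target genes. In macrophages, Toll-like receptor signalling is known to raise Hif1a transcription, and HIF-1 is known to drive glycolytic genes.

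The libraries differed widely in which Vegfa transcripts were counted, so the coding stretches that tell those transcripts apart are shown first. Each runs from exon 5 to the last codon on the minus strand of mm10, chr17:46018861-46024094, and joins only the exons of that transcript. Capitals mark exon 6 (72 bases, 24 residues, chr17:46022277-46022348) and exon 7 (132 bases, 44 residues, chr17:46020991-46021122), by the exon numbers in common use. Both encode basic stretches known to bind heparin, and exon 7 is known to contribute to neuropilin binding. The model without either is Vegfa-201 (146 residues), the one with exon 7 alone is Vegfa-202 (368 residues, from an upstream non-ATG start), the one with exon 6 alone is Vegfa-203 (170 residues), and Vegfa-207 (392 residues) has both.
Vegfa-201: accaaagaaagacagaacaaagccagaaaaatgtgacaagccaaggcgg
Vegfa-202: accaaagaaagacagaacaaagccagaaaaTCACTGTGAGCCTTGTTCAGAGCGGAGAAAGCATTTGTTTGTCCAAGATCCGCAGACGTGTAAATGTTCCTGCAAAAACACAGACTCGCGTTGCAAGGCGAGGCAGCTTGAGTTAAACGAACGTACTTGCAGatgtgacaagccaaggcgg
Vegfa-203: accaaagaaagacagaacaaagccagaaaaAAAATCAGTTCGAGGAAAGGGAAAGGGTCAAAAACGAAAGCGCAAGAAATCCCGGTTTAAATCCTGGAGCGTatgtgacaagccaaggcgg
Vegfa-207: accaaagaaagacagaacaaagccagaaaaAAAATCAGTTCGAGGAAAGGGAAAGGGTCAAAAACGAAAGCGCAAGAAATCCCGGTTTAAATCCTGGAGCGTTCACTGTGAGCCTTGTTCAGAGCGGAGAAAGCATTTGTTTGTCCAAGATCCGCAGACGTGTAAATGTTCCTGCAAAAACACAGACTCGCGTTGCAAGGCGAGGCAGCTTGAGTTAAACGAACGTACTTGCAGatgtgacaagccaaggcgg

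Both subunits of HIF-1 were also read from pairs of coding transcripts that differ by a short in-frame stretch, here in capitals. In Hif1a it is the first 42 bases of exon 11 (14 residues, chr12:73941688-73941729, plus strand), present in Hif1a-201 and absent from Hif1a-202.
Hif1a-201: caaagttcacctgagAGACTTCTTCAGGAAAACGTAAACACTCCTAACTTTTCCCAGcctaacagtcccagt
Hif1a-202: caaagttcacctgagcctaacagtcccagt
In Arnt it is a cassette exon of 45 bases (15 residues, chr3:95466793-95466837, plus strand), present in Arnt-203 and skipped in Arnt-202.
Arnt-202: agagcggtttgccagggaaaatcatagtga
Arnt-203: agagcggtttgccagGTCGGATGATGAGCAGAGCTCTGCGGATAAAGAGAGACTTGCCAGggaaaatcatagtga

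Each library was quantified in 2 ways, called first (from alignments to transcripts) and second (from reads against a transcript index), and values are from the first unless the second is named. Its expected counts totalled 24596382, 54016971 and 43127749 in replicates 1, 2 and 3. Replicate 2 stood apart: mitochondrial mRNAs took 6.86% of its counts against 1.06% and 1.13% in the others, and the median of 10350 detected protein-coding genes was 12.5 TPM there against 15.2 and 16.1. TPM, read number per transcript length scaled to a fixed sum per library, can be compared between genes, and detected means at least 1 TPM in at least 1 library. Macrophage identity was read from 8 markers, all at 1 TPM or more in every library, with summed levels of 14100 to 16700 TPM. Of 8 endothelial markers only Kdr reached 1 TPM in every library, and Tek, Tie1 and Sox17 had no counts, with sums of 39.4, 14.5 and 28.3 TPM. In replicates 1, 2 and 3, Vwf read 3.84, 0.69 and 3.91 TPM, lowest in replicate 2 like Kdr, and Cdh5 0.36, 5.82 and 0.45, highest there. No fibroblast or erythroid marker of 8 each reached 1 TPM in every library (sums up to 3.05 and 0.29 TPM), and of 8 neutrophil markers only S100a8 did. The neutrophil sum was 12.5 TPM in replicate 2 against 2.21 and 2.9 in replicates 1 and 3, Ly6g had no counts, and the part of endothelial or neutrophil RNA in the differences of replicate 2 was not tested.

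Of the 10 genes, 7 were at 1 TPM or more in every library, a share of 70.0% beside 42.9% of 22028 protein-coding genes. These were Hif1a, Egln2, Arnt, Vegfa, Ero1l, Vhl and Egln1, with means from 6.27 to 33.6 TPM. Epas1, Egln3 and Adm were at or below 0.11 TPM in every library. In RNA from whole cultures, fewer cells expressing a gene and less RNA per cell cannot be told apart.

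**Figure D1:**
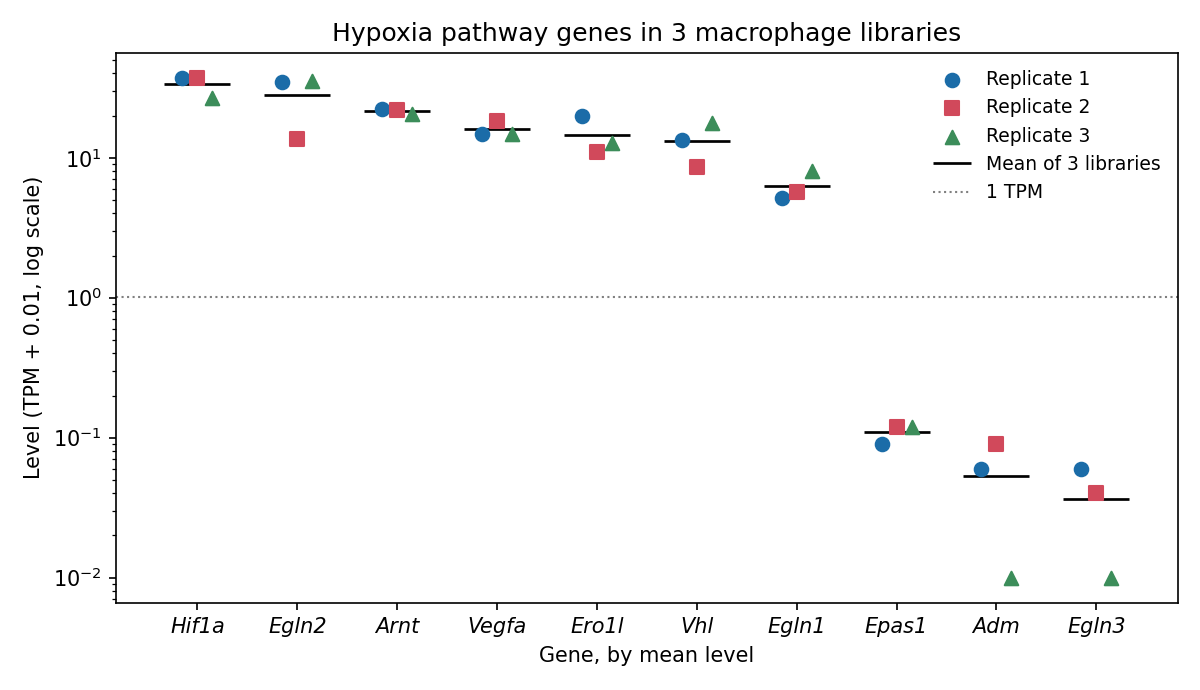
Level of each of the 10 hypoxia pathway genes in the 3 libraries (TPM + 0.01, log axis), ordered by mean, with a bar at the mean. Hif1a to Egln1 lie above the dotted line at 1 TPM in every library, while Epas1, Adm and Egln3 are at or below 0.11 TPM.

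Among the HIF subunits, the macrophages held Hif1a and Arnt RNA and almost no Epas1 RNA. Hif1a (ENSMUSG00000021109.13, chr12:73901375-73947530, plus strand) read 36.8, 37.1 and 26.7 TPM in replicates 1, 2 and 3, or 33.6 ± 5.92 TPM (SD, n = 3), above 69.5% of detected protein-coding genes. Replicates 1 and 2 were close together and replicate 3 was the lowest. In the second quantification Hif1a read 25.3, 37.5 and 23.6 TPM, with replicate 2 the highest and replicate 3 still the lowest. Arnt (ENSMUSG00000015522.18, chr3:95434388-95497240, plus strand) read 22.2, 22.1 and 20.4 TPM, or 21.5 ± 0.998, a coefficient of variation of 4.63%. In CPM, which are counts over library size with no length correction, with sizes scaled by the trimmed mean of M-values (TMM), its spread was wider, at 56.1 ± 11.7. Hif1a exceeded Arnt in each library, by 1.66-, 1.68- and 1.31-fold, a log2 ratio of 0.62 ± 0.20. A ratio was called separated when the log2 ratio of TPM + 0.1 had 1 sign in all 3 libraries and its mean was beyond 3 SD, which this one met narrowly. It was not met without replicate 1 (0.57), without replicate 2 (0.56) or in the second quantification (0.53).

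Epas1 (ENSMUSG00000024140.10, chr17:86753700-86833410, plus strand) read 0.08, 0.11 and 0.11 TPM from 7, 25 and 18 counts, or 0.1 ± 0.0173 TPM. Hif1a stood 471-fold (95% counting interval 229 to 1170), 326-fold (221 to 504) and 244-fold (154 to 412) above it. Intervals and floors given here cover counting error only, by an exact Poisson interval on the lower gene's count. The second quantification placed more reads on Epas1, with 65.7, 269 and 89.1 estimated counts and 0.396, 1.19 and 0.436 TPM. The log2 ratio of Hif1a to Epas1 was 7.38 ± 0.35 in the first quantification and 5.34 in the second, so the counting intervals do not cover the choice of quantification. Epas1 remained the lowest of the 8 genes with enough counts to be ranked. Of 5 further genes of the same family of bHLH-PAS factors, only the circadian gene Arntl reached 1 TPM in every library, at 3.96 ± 0.525 TPM. The median of these 5 was 0.153 TPM. The other α subunit gene, Hif3a, read 0.09, 0.22 and 0.15 TPM, and Arnt2, the neural relative of Arnt, 0.26, 0.05 and 0.12 TPM. The lowest was Npas2 at 0.03 ± 0.01 TPM. Hif1a over Hif3a and Arnt over Arnt2 were both separated, with log2 ratios of 7.07 ± 0.47 and 6.57 ± 0.63.

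The 3 prolyl hydroxylase genes were at very different levels. Egln2 (ENSMUSG00000058709.11, chr7:27158658-27166802, minus strand) read 34.5, 13.7 and 35.4 TPM, or 27.9 ± 12.3. Replicate 2 was far below the other libraries, which were alike. Egln1 (ENSMUSG00000031987.6, chr8:124908587-124949324, minus strand), the main HIF-1α hydroxylase in most cells, read 5.16, 5.66 and 8.0 TPM, or 6.27 ± 1.52, below Egln2 in every library. The log2 ratio of Egln1 to Egln2 was -2.72, -1.26 and -2.13. Its mean of -2.04 ± 0.74 was not beyond 3 SD. It was called separated without replicate 2, at -2.43, and in the second quantification, at -2.24.

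Egln3 (ENSMUSG00000035105.5, chr12:54178981-54203860, minus strand), itself a known HIF target, had 2, 3 and 0 counts. These were 0.05, 0.03 and 0 TPM, where 3 counts in replicate 3 would have been 0.0402 TPM. Egln1 was 106-fold (95% counting interval 29.2 to 872) and 191-fold (65.5 to 928) above Egln3 in replicates 1 and 2, and at least 199-fold above it in replicate 3, counted against that floor. Egln2 was 706-fold (196 to 5830), 462-fold (158 to 2240) and at least 881-fold above it. Hif1an, which encodes the asparaginyl hydroxylase that limits HIF coactivator binding, read 8.2 ± 1.74 TPM. Its ratio to Egln1 changed sign between libraries.

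Vhl (ENSMUSG00000033933.13, chr6:113623959-113631633, plus strand) read 13.5, 8.53 and 17.7 TPM, or 13.2 ± 4.58. It was lowest in replicate 2 and highest in replicate 3. In the second quantification Vhl read 8.83, 11.3 and 18.6 TPM, with replicate 1 the lowest. Hif1a exceeded Vhl 2.74-, 4.35- and 1.51-fold, a log2 ratio of 1.38 ± 0.76 that was called separated only without replicate 3, at 1.78. The ratio of Hif1a to Egln1 was separated, at 7.14-, 6.56- and 3.34-fold and a log2 mean of 2.41 ± 0.59, a call not met without replicate 2 (2.27). Vhl lay far below Elob, an elongin gene of its ligase, at a log2 ratio of -3.71 ± 0.78. In CPM, which is not corrected for length, the ratio was -0.63 and not called separated.

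Promoter windows of RefSeq (GRCm38.p6, 250 bases before to 50 after a start) were searched for the core of the HIF response element, ACGTG, on both strands. Of 32851 windows of that length in the table, 19.6% held it. Windows were matched for 9 of the 10 genes, Ero1l under its RefSeq name Ero1a and Epas1 not matched. Of the 11 windows of these 9 genes, 6 held ACGTG (54.5%), at Hif1a, Egln1, Egln2, Egln3, Ero1l and Vegfa. A second form of the core, GCGTG, was in 63.6% of the members' windows and 32.4% of all windows, and a window can hold both forms. At Vegfa the ACGTG match lay in a window inside the gene, chr17:46025114-46025413. The Vegfa window at the annotated gene start, chr17:46032328-46032627, held neither form. The hydroxylase genes are shown because all 3 held ACGTG while their levels ran from 0 to 35.4 TPM. Egln1 and Egln3 had 1 match each and Egln2 had 3, of which a pair on opposite strands overlaps 3 and 4 bases before the start. The matches printed stand 68 (Egln1), 48 (Egln2) and 229 (Egln3) bases before the RefSeq start. They are at chr8:124949306-124949334, chr7:27166834-27166862 and chr12:54204087-54204115, each on the minus strand, with the core in capitals. The annotated Egln1 gene given above reaches to 124949324, beyond its RefSeq start, so the Egln1 core lies inside the annotated gene. A match is only a match of letters.
Egln1: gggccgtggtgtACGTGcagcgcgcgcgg
Egln2: agcctcctgtcaACGTGcggttcgcgcac
Egln3: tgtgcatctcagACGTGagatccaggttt

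Of the target genes in the set, Vegfa and Ero1l were near the median of detected genes and Adm was near 0. Vegfa (ENSMUSG00000023951.17, chr17:46016993-46032369, minus strand), the angiogenic growth factor, read 14.9, 18.3 and 14.8 TPM, or 16.0 ± 2.03, above 51.4% of detected genes. Replicates 1 and 3 were close together and replicate 2 was the highest. The paralog Vegfb read 9.9 ± 1.65 TPM, below Vegfa in every library, at a log2 ratio of 0.69 ± 0.42 that was not called separated, but was without replicate 2, at 0.45. Pgf, the placental growth factor gene, read 0.27, 0.24 and 0.17 TPM from 6 to 10 counts, and Vegfa over Pgf was separated at 5.63 ± 0.25.

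Ero1l (ENSMUSG00000021831.9, chr14:45283087-45318771, minus strand) encodes an endoplasmic reticulum oxidase that recharges protein disulfide isomerase. It read 19.7, 11.0 and 12.8 TPM, or 14.5 ± 4.6, with replicate 1 the highest. Its paralog Ero1lb read 6.5 ± 1.54 TPM, and Ero1l over Ero1lb was separated at a log2 ratio of 1.13 ± 0.36, a call not met without replicate 2 (1.10) or in the second quantification (1.18). Adm (ENSMUSG00000030790.15, chr7:110627661-110629820, plus strand), which encodes the vasodilator peptide adrenomedullin, had 1, 4 and 0 counts, or 0.05, 0.08 and 0 TPM. The floor of 3 counts in replicate 3 would have been 0.0864 TPM. Vegfa was 287-fold (95% counting interval 51.5 to 11300), 223-fold (87.1 to 818) and at least 171-fold above Adm.

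By mean level the order was Hif1a, Egln2, Arnt, Vegfa, Ero1l, Vhl, Egln1 and Epas1, with Adm and Egln3 given no place because each had 3 counts or fewer in at least 1 library. Of the 7 neighbours in this order of 8 genes, only Egln1 and Epas1 were separated, at a log2 ratio of 4.97 ± 0.26. That ratio was 2.91 in the second quantification. The other 6 neighbours did not meet the rule. Hif1a to Egln2, Egln2 to Arnt, Vegfa to Ero1l and Ero1l to Vhl each changed sign between libraries. Arnt to Vegfa, at 0.43 ± 0.16, and Vhl to Egln1, at 1.03 ± 0.40, kept 1 sign but had means within 3 SD. Without replicate 2, 4 of 7 neighbours were separated. Of 20 pairs compared in all, 14 were separated. These include every pair with Epas1, Egln3, Adm, Hif3a, Arnt2 or Pgf, each under 1 TPM in every library. Separation of such genes from well-detected ones was to be foreseen. For Egln3 and Adm, with no counts in replicate 3, the added 0.1 TPM set the ratio there. No share of separated pairs was taken over other genes. No p-value is given, because flipping signs over 3 libraries allows no exact p under 0.25.

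The libraries differed in the transcripts behind the Vegfa level. By the first quantification, Vegfa-202 with exon 7 alone made up 52.0% and 52.1% of Vegfa TPM in replicates 1 and 3 and 15.2% in replicate 2. Vegfa-203 with exon 6 alone made up 0% and 1.06% in replicates 1 and 3 and 48.3% in replicate 2. Transcripts with neither exon, of which Vegfa-201 was the one read, were alike at 30.2%, 26.5% and 26.6%, or 27.8 ± 2.13%. Those with both exons took 3.73%, 2.15% and 0.94%, and 5 models without coding sequence took 14.1%, 7.82% and 19.3%. The second quantification had the same library apart, with the exon 6 form at 8.96%, 52.0% and 12.6%.

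Counts gave a smaller place to the exon 6 form. Vegfa-203 is a model of 513 bases with coding sequence only, and it held 109 of the 1063 expected counts of Vegfa in replicate 2, or 10.2%. Its effective length of 295 bases there turned those counts into 8.86 of 18.3 TPM. The effective length of the whole gene was 1397 bases in replicate 2 against 2539 and 2410 in the others. With the TPM of Vegfa-203 subtracted, and its counts not given to other transcripts, the gene read 14.9, 9.47 and 14.6 TPM, or 13.0 ± 3.05. Replicate 2 thus went from the highest to the lowest. Over detected genes TPM was also lower in replicate 2, by a median log2 difference of -0.36 from the mean of replicates 1 and 3. TMM-scaled CPM also had Vegfa lowest in replicate 2, at 26.1, 22.3 and 23.1. Replicates 2 and 3 were close there. The chi-square test described below, run without replicate 1, did not tell them apart (adjusted p 0.166). Exon 7 alone held 65.4%, 35.2% and 68.4% of the Vegfa counts, and neither exon 29.9%, 48.3% and 27.4%. The lower share of exon 7 alone in replicate 2 was thus seen in both quantifications and in the counts, whereas replicate 2 had the highest Vegfa level in TPM of both quantifications but the lowest in CPM. Whether the mitochondrial share or the read composition of replicate 2 bears on this was not tested.

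**Figure D2:**
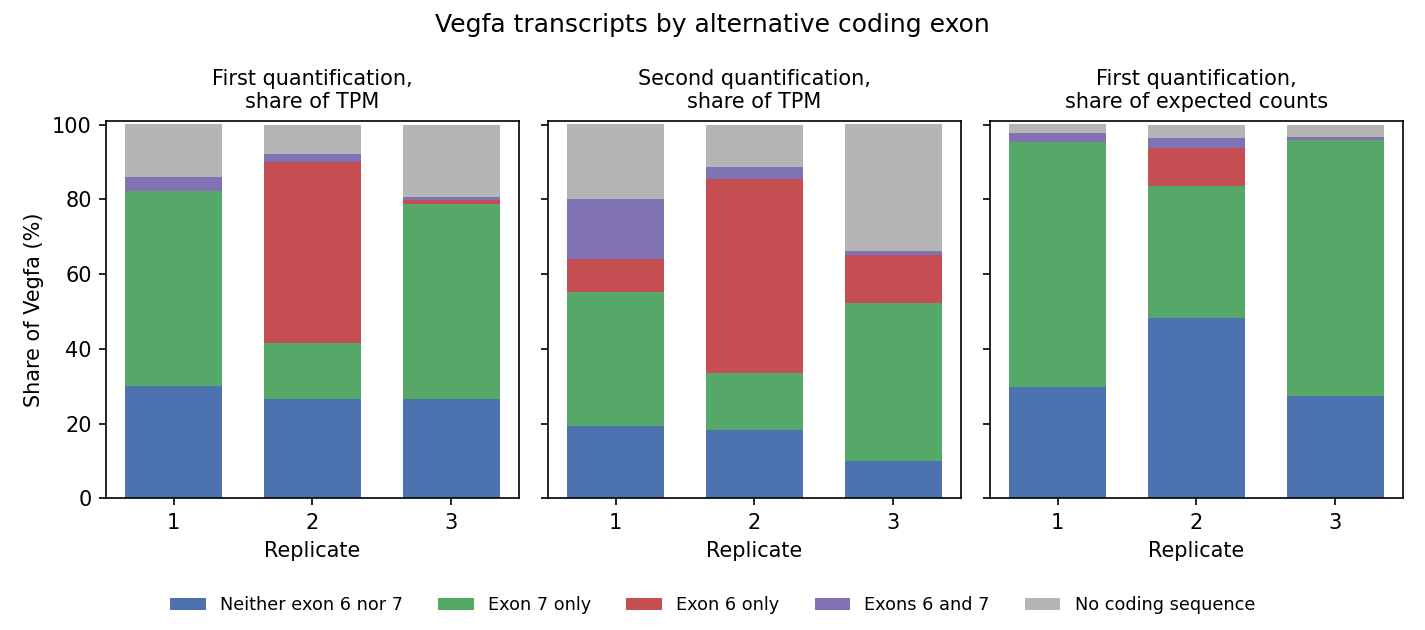
Share of Vegfa (%) held by transcripts grouped by coding exons 6 and 7, for each replicate, as TPM of the first and second quantification and as counts. In both TPM panels replicate 2 has much of its Vegfa in the exon 6 form (48.3% and 52.0%), which is 10.2% of its counts, and in all panels its share with exon 7 alone is the lowest.

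Hif1a was divided between its coding transcripts. Hif1a-201 (836 residues) took 63.6%, 60.1% and 50.1% of Hif1a TPM, or 57.9 ± 7.01%, and Hif1a-202 (810 residues) 35.3%, 39.9% and 47.6%, or 40.9 ± 6.17%. Besides the stretch of 42 bases, they differ in their first exons, at chr12:73907904-73908324 for Hif1a-201 and at chr12:73901375-73901498 for Hif1a-202. Hif1a-201 held the larger share in each library, with replicate 3 nearest to equal. The second quantification gave 71.2%, 60.7% and 57.6% for Hif1a-201 and 24.8%, 39.0% and 39.5% for Hif1a-202. The remaining 3 Hif1a models each averaged under 1% in the first quantification. Gm15283, annotated antisense to Hif1a, had 8.02, 13 and 3 counts, and since strandedness is not given in the sources used here, its reads and those of Hif1a cannot be told apart where they overlap. Annotated genes overlapping Arnt, Egln2, Adm and Epas1 had at most 2 counts in a library.

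In Arnt, Arnt-202 without the cassette exon took 67.0 ± 3.35% of the gene and Arnt-203 with it 23.1 ± 1.7%, in the same order in every library. The second quantification moved these to 55.7% and 32.0%. Egln1 and Epas1 were each read from 1 transcript. Egln2-201 averaged 94.1 ± 3.14%, Ero1l-201 98.1 ± 2.55% and Vhl-201 93.3 ± 6.79%, with the non-coding Vhl-202 at 6.71 ± 6.79%. In the second quantification these leading transcripts averaged 69.0%, 78.5% and 78.2%. For Egln2-201 the second quantification gave 84.7%, 35.6% and 86.6%, lower than the first in each library and by most in replicate 2, where Egln2-202, a model of the same 419-residue protein length, took 48.9%.

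The members were set beside lists of their partners and of other HIF targets, counted by how many genes were at 1 TPM or more in every library. Of all protein-coding genes 42.9% met this, and of detected genes 91.2%. The lists were not filtered for detection. List medians are of log2(mean TPM + 1) minus the median over detected genes, and all protein-coding genes had a median of -3.63 on that scale. Of 11 degradation and hydroxylation partners, 9 met it, with a median 0.62 above that of detected genes. Elob and Eloc, the elongins of the Vhl ligase, read 202 ± 121 and 139 ± 51.3 TPM, the lectin gene Os9 123 ± 26.6, and the transmembrane prolyl hydroxylase gene P4htm 0.0567 ± 0.0153. Of 9 coactivators and antagonists, 8 met it, with a median 2.48 above. The chaperone gene Hsp90ab1 read 778 ± 235 TPM, the pyruvate kinase gene Pkm 374 ± 81, the scaffold gene Rack1 234 ± 93, and Cited4 had no counts.

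The receptor side of the set's ligands was uneven. Of 9 further VEGF ligands and receptors, 4 met the level of 1 TPM, with a median at -3.21 from that of detected genes. The neuropilin genes Nrp2 and Nrp1, whose products bind Vegfa forms with exon 7, read 210 ± 7.49 and 45.0 ± 12.6 TPM. Kdr, the main VEGF receptor of endothelium, read 35.2, 7.9 and 23.8 TPM. Of the other endothelial markers, Vwf had 267, 99 and 472 counts, also lowest in replicate 2, Cdh5 had 23, 165 and 53, and Tek, Tie1 and Sox17 had 0, and the part of endothelial RNA in the Kdr level was not tested. Flt4 and Flt1, the other VEGF receptor genes of the list, read 0.733 ± 0.442 and 0.117 ± 0.0907 TPM. Vegfd was lowest, with 1 count in all. Of 5 adrenomedullin receptor genes only Calcrl met the level, at 11.5 ± 5.55 TPM, and the list's median was at -3.80. Its partners Ramp1, Ramp3 and Ramp2 were at or below 0.36 TPM in every library, and Ackr3 had no counts. Of 10 genes of disulfide formation in the endoplasmic reticulum, 8 met it, with a median 1.15 above, led by the isomerase genes Pdia3 at 276 ± 11.6, P4hb at 165 ± 4.16 and Pdia6 at 112 ± 26.8 TPM, with the peroxidase gene Gpx8 lowest at 0.0333 ± 0.0306.

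HIF targets of glucose metabolism were mostly at high levels, and other HIF targets ranged widely. Of 18 genes of glucose metabolism, 16 met the level, with a median 2.39 above that of detected genes. The glycolytic enzyme genes Gapdh, Aldoa and Ldha read 1210 ± 162, 402 ± 184 and 238 ± 83.1 TPM, and the glucose transporter gene Slc2a3 was lowest at 0.92 ± 0.591. Slc2a1, the other glucose transporter gene of the list, read 8.99 ± 5.04 TPM. Its log2 ratio to Slc2a3 of 3.15 ± 1.07 was not called separated, but was without replicate 1 (2.57) or replicate 3 (3.62). Hk2, the inducible hexokinase gene, stayed below Hk1 in every library, at a log2 ratio of -2.06 ± 0.41.

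Of 35 other targets, which include Vegfa, Ero1l, Adm and Egln3 and share Slc2a1, Hk2 and Pfkfb3 with the glucose list, 23 met the level (65.7%), and the median was at -1.65, below that of detected genes and above that of all protein-coding genes. Plin2, which coats lipid droplets, read 511 ± 51.8 TPM, the haem oxygenase gene Hmox1 277 ± 50.8 and the cytokine gene Mif 163 ± 112. Epo, the erythropoietin gene, had no counts. The mitophagy receptor genes Bnip3l and Bnip3 read 50.1 ± 14.3 and 11.7 ± 2.22 TPM and were separated, at a log2 ratio of 2.07 ± 0.63, a call not met without replicate 1 (2.26) or replicate 3 (2.24). With no library at another oxygen level or without lipid A, these values are levels and not responses.

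**Figure D3:**
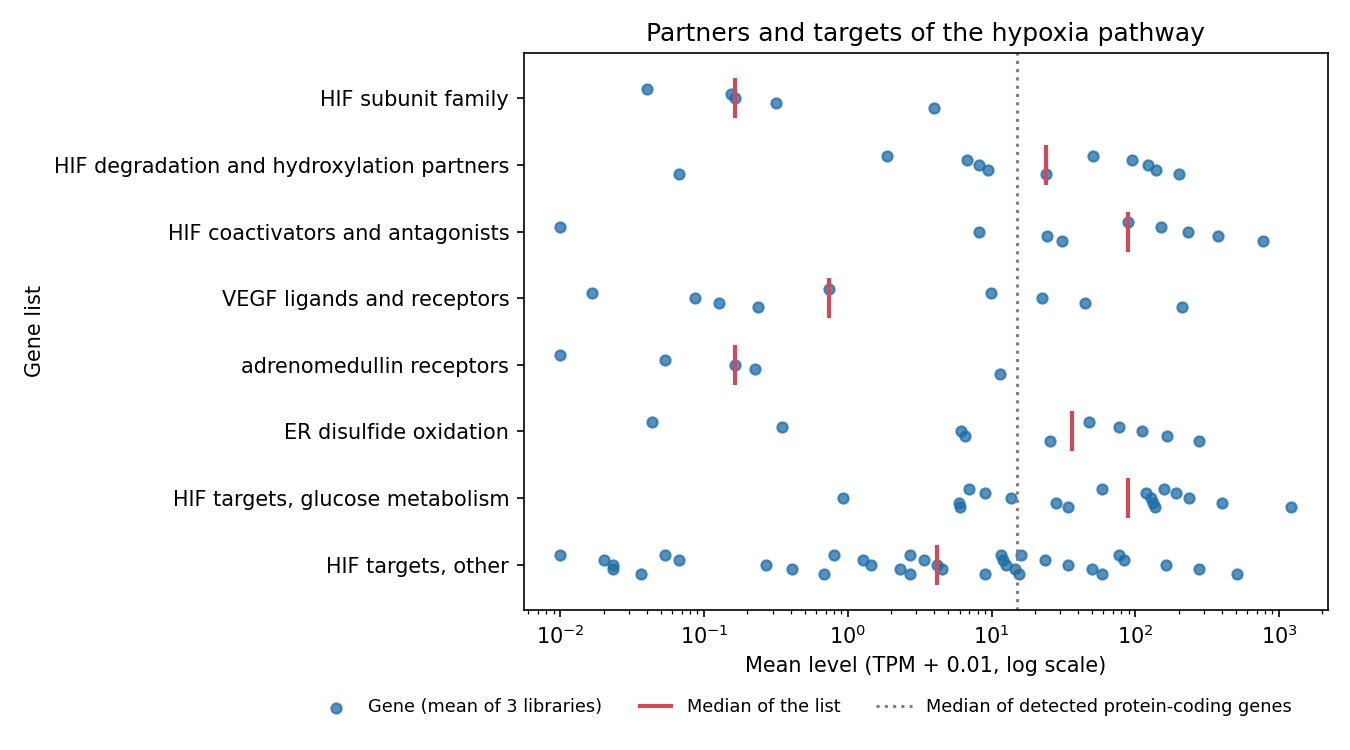
Mean level over 3 libraries (TPM + 0.01, log axis) of each gene in 8 lists of HIF partners and targets; red bars are list medians and the dotted line is the median of detected protein-coding genes, 15.1 TPM. Most glucose metabolism targets lie right of that line. Most genes of the list of VEGF ligands and receptors and of the list of adrenomedullin receptors lie left of it, while Nrp2, Nrp1 and Kdr lie right.

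The members' differences between libraries were then set against counting noise. Of 11932 genes tested gene by gene with a chi-square test against equal shares of the TMM-scaled library sizes, 10491 differed between libraries beyond counting error (87.9%), at a Benjamini-Hochberg adjusted p under 0.05. Of the 10 members, 8 passed the filter on low counts and 7 of these were called, a share like that of all genes. Hif1a had an adjusted p of 1.64e-228 in this chi-square test, with 109, 141 and 72.7 TMM-scaled CPM. Egln2 had 42.1, 21.5 and 41.2 TMM-scaled CPM and an adjusted p of 5.34e-75, and without replicate 2 its adjusted p was 0.72. Arnt lost its call without replicate 2 too (adjusted p 0.0694), Egln1 and Vegfa lost theirs without replicate 1 (0.248 and 0.166), and Vegfa also lost it with no filter on low counts (0.143). Epas1 was the 1 tested member not called, at an adjusted p of 0.287 in the chi-square test.

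Spread beyond that of genes of like abundance was not detected by the F test of edgeR's quasi-likelihood fit. It called 0 of 11932 genes (0%), with 503 at an unadjusted p under 0.05, and likewise 0 of 11932 on DESeq2 size factors, with 507. It called 0 of the 8 members, none of them at an unadjusted p under 0.05, with the lowest at 0.206 for Egln2. So 7 of 8 tested members differed between the libraries beyond counting error, by amounts not shown to exceed those of genes of like abundance.

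Replicate 2 differed from the mean of replicates 1 and 3 in both directions, and for some members the direction rested on the scale. Over detected genes the median log2 difference was -0.36 in TPM and -0.03 in TMM-scaled CPM. Hif1a was higher in replicate 2, by 0.22 in TPM, 0.63 in TMM-scaled CPM and 0.62 in TPM of the second quantification. Egln2 was lower on these scales, at -1.35, -0.95 and -0.75, and so was Vhl, at -0.86, -0.58 and -0.28. Vegfa read 0.31, -0.14 and 0.40, so its sign turned, though in CPM replicates 2 and 3 were close (22.3 and 23.1). Egln1 read -0.21, 0.19 and 0.14, and with each library's TPM centred on the median of detected genes 0.11, so only its uncentred TPM value was below 0. Arnt was at 0.05, 0.49 and 0.38, and Ero1l at -0.56, -0.13 and -0.60. A difference from this mean need not set replicate 2 apart from both other libraries. Egln2 was below both on these scales. Hif1a TPM, however, was alike in replicates 1 and 2 (36.8 and 37.1) and lower in replicate 3 (26.7). In the second quantification Vhl in replicate 2 (11.3 TPM) was above replicate 1 (8.83). In TMM-scaled CPM Ero1l in replicate 2 (40.1) was above replicate 3 (34.2).

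**Figure D4:**
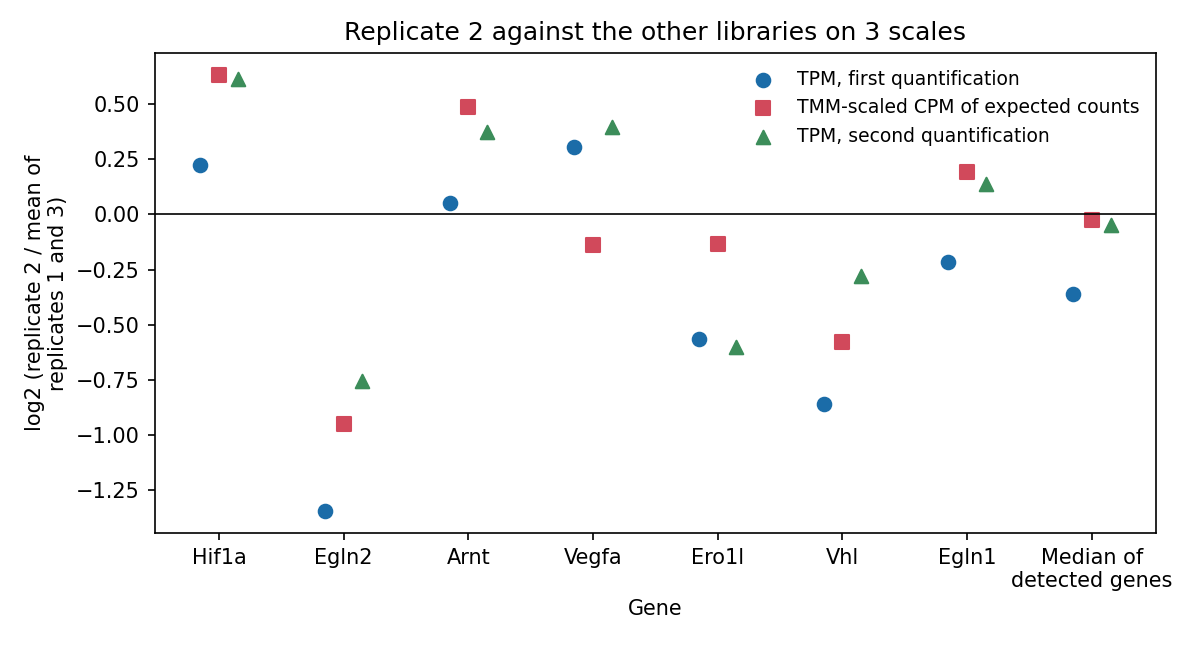
log2 of replicate 2 over the mean of replicates 1 and 3 for the 7 members at 1 TPM or more in every library and for the median of detected genes, on 3 scales (TPM of each quantification and TMM-scaled CPM). Hif1a and Arnt lie above 0 and Egln2, Ero1l and Vhl below 0 on all 3 scales. Vegfa is below 0 in CPM alone, and Egln1 in TPM of the first quantification alone, where the median of detected genes is also below 0, at -0.36.

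The choice of quantification moved none of the 7 members tested past the test. limma on the within-library differences of log2(TPM + 1) called 169 of 10203 protein-coding genes (1.66%), with 129 higher in the second quantification (1.26%), where a call needed an adjusted p under 0.05 and 1 log2 unit or more. Of the 7 members tested, 0 were called and 0 had an unadjusted p under 0.05. The median difference over all genes was -0.14. The widest among these 7 was Hif1a, at -0.23 with a limma adjusted p of 0.743, and Vegfa was at 0.10. The standard error of 0.181 was the same for all 7, so it is a value pooled over genes and not the spread of Hif1a alone. Adm, Egln3 and Epas1 were below the filter on low values. With no filter, limma called 0 of 16739 genes. Epas1 was then 0.57 higher in the second quantification (standard error 0.168, limma unadjusted p 0.0429, limma adjusted p 0.632). Adding 1 TPM flattens differences between values this low. Epas1 averaged 0.1 TPM in the first quantification and 0.673 TPM in the second.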

How the data were processed

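Polyadenylated RNA was sequenced in 3 libraries of 1 group, replicates 1, 2 and 3, with no contrast and 1 library per file. Notes that came with the deposited files name mm10 and the M21 annotation of GENCODE for 2 quantifications of each library. Which tools made them is not given in the sources used here. The first was made from transcriptome alignments and holds, per the file headers, the authors' expected counts, TPM (counts per effective length, scaled per library) and, for transcripts, the percent of the gene's TPM (isoform percentage). The second was made from reads against an index and holds the authors' estimated counts and TPM, per the file headers. In both, reads shared by overlapping transcripts were divided by a model, which can move isoform shares.

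Transcripts of the second quantification were summed to genes, and 86 genes had none there. Of 81881 entries of the gene tables, 26345 were not annotated genes, held 0.0464% to 0.0875% of the counts and were left out of tests. Expected counts were rounded for count tests, and their totals of 24596382 to 54016971 set the precision. Libraries were compared on TMM-scaled sizes by a chi-square test and by the F test of edgeR 4.0.16 (filterByExpr, one-sided), and quantifications by limma 3.58.1 on log2(TPM + 1) for protein-coding genes at a mean of 1 TPM or more in either. Ratios were of TPM + 0.1. Alternatives were DESeq2 1.42.0 size factors, other pseudocounts, filters and detection levels, centring, CPM without length correction, the second quantification and leaving out each library. The tests were tested on simulated data. R 4.3.3 and Python 3.11.15 were used. Sequences of transcripts are from GENCODE M21, and promoters from RefSeq.

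The genes named were all members, all genes of 20 pairs, the 3 highest and the lowest of each list of partners and targets, and member transcripts at 5% or more of their gene. Cell type markers, Vegfa-207, Arntl, Egln2-202, Gm15283, Flt4, Flt1 and the Ramp genes were named outside this rule, some after their values were seen. The members, lists and pairs were chosen with earlier results of these data known, and so support nothing by their choice.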

Additional observations from a re-analysis of the deposited data

How the results depend on the processing

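Depth limits Adm, Egln3 and Epas1, whose 0 to 25 counts give no usable difference between libraries, and 3 libraries limit every call of separation. No paired analysis was possible because there is 1 group. Neighbours in the order of levels turned over easily. When a library was left out, the log2 ratio of Hif1a to Egln2 ran from -0.155 (without replicate 2) to 0.764, that of Vegfa to Ero1l from -0.101 (without replicate 2) to 0.468, that of Ero1l to Vhl from -0.051 (without replicate 1) to 0.453, and that of Egln2 to Arnt from -0.025 (without replicate 3) to 0.714. In CPM, which favours long transcripts, Egln2 to Arnt was -0.725 and Vegfa to Ero1l -0.817. Of 7 neighbours 1 was separated, against 2 in the second quantification, 3 in CPM and 1 to 4 when a library was left out. At 5 TPM in place of 1, counts fell to 0 for the HIF subunit family, 14 for other HIF targets and 0 for neutrophil markers. Endothelial markers rose to 2 at 0.5 TPM and ranged from 1 to 2 when a library was left out. The Vegfa share with neither exon averaged 15.9% in the second quantification and 35.2% of counts, an alternative chosen after seeing the data, and that with both exons 6.73% in the second quantification. Leaving out a library put genes beyond counting noise at 6695 to 9696, the lowest without replicate 2, and genes with excess spread at 7 to 20 by edgeR. With no filter on low counts, edgeR called 64 genes for excess spread. limma called 258 genes between quantifications with a pseudocount of 0.1 and 0 with no filter on low values. The causes were not tested. The number of members at 1 TPM or more stayed at 7 under every alternative run.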
